A study of Mus musculus with 4 samples.

Results

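The genes described here encode the subunits of the constitutive proteasome: 34 genes named Psma1 to Psma7, Psmb1 to Psmb7, Psmc1 to Psmc6 and Psmd1 to Psmd14. They were taken as every non-control probe whose RefSeq accession belongs to 1 of these genes, which gave 42 probes among the 55668 analysed, and 34 of the 24044 features (genes or unnamed transcripts) tested. Kidney RNA of mice was measured 2 weeks after bile duct ligation (BDL), an operation that blocks bile flow from the liver and is used as a model of cholestasis, or after a sham operation. Each group had 2 samples, which the series' design text calls biological replicates, and each RNA was hybridised alone to a 1-colour Agilent array. Whether an RNA came from 1 mouse or a pool is not given in the sources used here, and "animal" below stands for such a sample. Strain, sex and age are not given in the sources used here, the tissue is labelled only as kidney, and no drug or allele is named for either group. The renal label was borne out by 10 of 10 proximal tubule markers (among them Lrp2, Slc34a1 and Slc5a2), each well above background on all 4 arrays.

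The proteasome degrades proteins that carry ubiquitin chains. Its core particle is a barrel of stacked rings, with outer rings of alpha subunits that gate the entry and inner rings of beta subunits, of which Psmb5, Psmb6 and Psmb7 carry the peptide-cutting sites. The regulatory particle caps the barrel: a ring of ATPases (Psmc genes) unfolds the substrate, and non-ATPase subunits (Psmd genes) bind ubiquitin or, in the lid, remove it. Interferons induce Psmb8, Psmb9 and Psmb10, which replace the constitutive cutting subunits in the immunoproteasome. Some names of the list do not stand for parts of the finished particle: Psmd5, Psmd9 and Psmd10 encode chaperones that help to assemble the ATPase ring, and these are kept apart below.

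Signals are given on the log2 scale after the 75th percentile of each array was taken off, so that 1 unit is a 2-fold step, and differences are BDL minus sham. All 34 members were well above background on all 4 arrays, so that none was lost to the filter on dim probes. Between 57.7% and 63.1% of the spots of an array were well above background, 0 were saturated, and any pair of arrays had a Pearson's r of 0.974 to 0.985 across the 24044 features. Sham replicate 1 stood apart from the other arrays in many immune genes and BDL replicate 1 in genes of urothelium and fat, as given below. The main results on the subunits are therefore also given without each of these arrays. With 2 arrays a group the spread between animals is known only roughly, and an exact two-sided permutation test of 2 against 2 could not go below a p of 1 in 3. In RNA of kidney tissue, fewer cells of a type and less RNA per cell cannot be told apart.

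The subunits were high together in 1 of the sham animals, and none passed the test between the operations. Of the 34 members, 29 had a lower mean in BDL than in sham kidneys, with a median difference of -0.15, where 51.4% of all features lay below 0 and their median was -0.011. With limma, 0 of the 34 members passed an adjusted p of 0.05 and 0 had an unadjusted p under 0.05, against a background of 0% and 5.62% of all features. The single differences ran from -0.40 (Psmb7) to 0.19 (Psmd9), and the smallest adjusted p was 0.872. Both BDL arrays lay below both sham arrays in 4 members (Psma3, Psmb5, Psmb7 and Psmd1), or 4 of 34 beside 19.3% of all features, and above both in 0, beside 17.4%. The share of separated members was thus no higher than that of the array as a whole.

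Sham replicate 1 was the highest of the 4 arrays in 33 of 34 members, where it was highest in 35.4% of all features. Its distance from the mean of the remaining 3 had a median of 0.40 over the members, from 0.16 (Psmd3) to 0.73 (Psma1), against 0.038 over all features. The exception was Psma4, for which BDL replicate 1 was highest by the brighter probe, at 4.50 beside 4.48 for sham replicate 1. The dimmer probe of Psma4 was highest on sham replicate 1. With the mean of all probes of a gene, sham replicate 1 was highest in 34 of 34 members. The other sham animal resembled the BDL animals: sham replicate 2 was the lowest array in 19 members (25.4% of all features), BDL replicate 1 in 11 (26.0%), BDL replicate 2 in 4 (20.7%) and sham replicate 1 in 0 (27.9%). Centred on each gene's mean over the 4 arrays, the median over the members was 0.30 and -0.15 for sham and -0.090 and -0.055 for BDL kidneys.

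**Figure D1:**
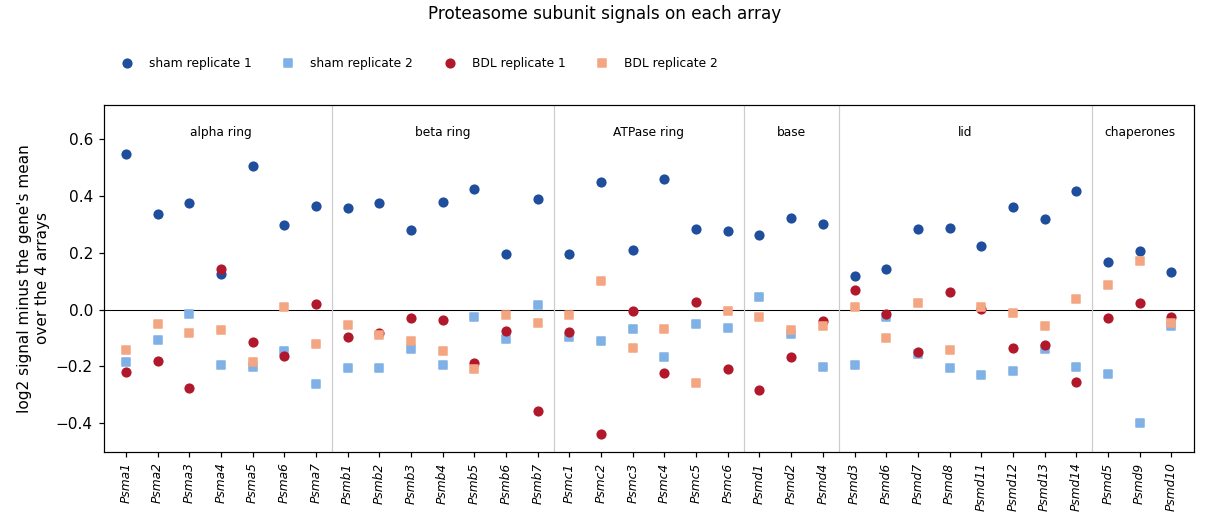
Each point is the log2 signal of 1 subunit gene on 1 array minus that gene's mean over the 4 arrays, with the genes grouped by their place in the proteasome. The dark blue points of sham replicate 1 lie on top in 33 of 34 genes, while the points of sham replicate 2 and of both BDL arrays mix.

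Taken pair by pair, sham replicate 1 exceeded sham replicate 2 in 34 of 34 members (median 0.44), BDL replicate 1 in 33 (median 0.44) and BDL replicate 2 in 34 (median 0.37). The 3 pairs without it had medians between -0.078 and -0.030, and sham replicate 2 exceeded BDL replicate 1 in 12 members and BDL replicate 2 in 7. The distance between the 2 sham animals was larger in size, in the median, than the difference of -0.15 between the group means. These are unlike measures, since a mean of 2 arrays varies less than a single array. Over all features the largest of the 6 medians was 0.062, between the sham animals.

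**Figure D2:**
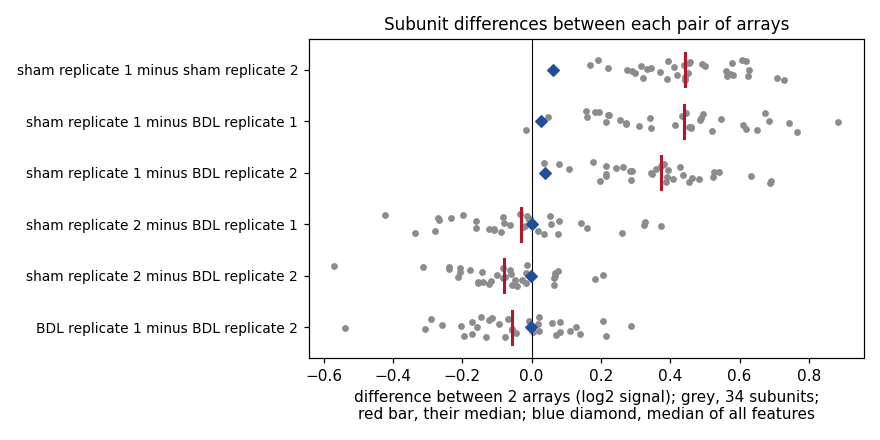
Grey points are the 34 subunits, each as the difference in log2 signal between the 2 arrays named on the left, with the red bar at their median and the blue diamond at the median of all features. The members sit to the right of 0 in the 3 pairs that hold sham replicate 1 (medians 0.37 to 0.44) and around 0 in the other 3.

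Without sham replicate 1 the comparison turned: 23 of 34 members were higher in BDL and 11 lower (50.4% of all features), with a median of 0.053. Without sham replicate 2, all 34 members were lower in BDL (52.7% of all features), with a median of -0.40. Groups of 2 against 1 did not overlap, with BDL lower, for 33 members without sham replicate 2 (41.4% of all features), and for 4 without sham replicate 1 (34.7%). With BDL higher, 0 members separated without sham replicate 2 (35.8% of all features) and 19 without sham replicate 1 (34.9%). Leaving out BDL replicate 1 or 2 gave medians of -0.15 and -0.17. No p-values are given for these fits, in which the lone animal of a group was assumed to vary like those of the other group.

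**Figure D3:**
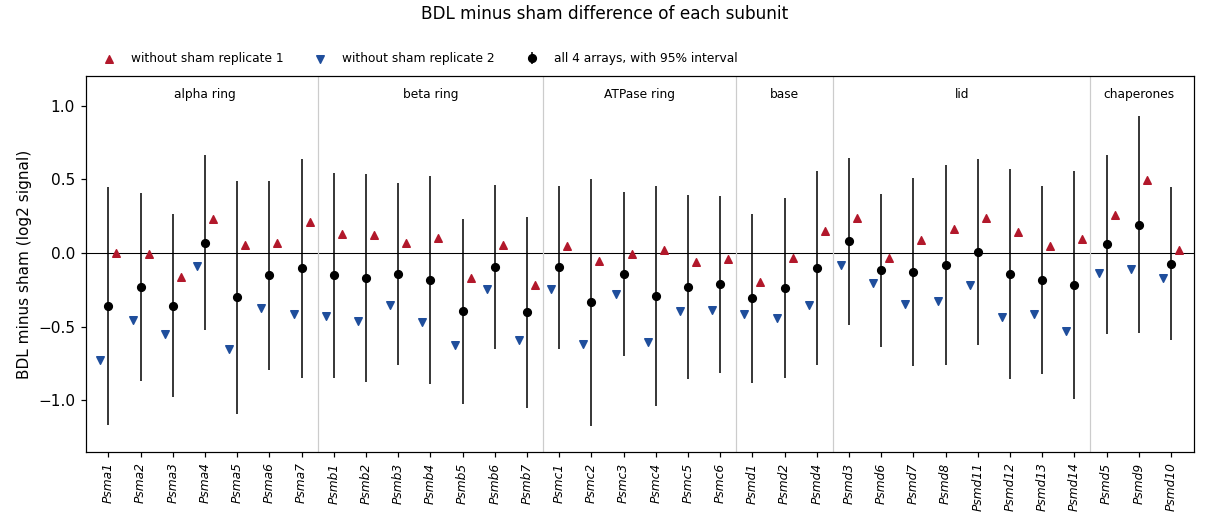
Black points are the BDL minus sham differences of each subunit in log2 signal, with 95% intervals from limma, and triangles are the differences without 1 of the sham arrays. All 34 intervals span 0. The downward triangles, without sham replicate 2, lie below 0 for all 34 genes, and the upward ones, without sham replicate 1, scatter around it.

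Bright features in general tended to be high on sham replicate 1. Among the 3220 features with a mean log2 signal above 4, sham replicate 1 was highest in 50.4% and stood 0.15 above the other arrays in the median. The 23 members in that range exceeded this, with sham replicate 1 highest in 22 and a median of 0.45. After quantile normalization, which makes the distributions of the arrays equal, sham replicate 1 was highest in 26 of 34 members (31.3% of all features), with a median of 0.25 above the other arrays. The part of overall array brightness in the pattern was not tested beyond these values.

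In the alpha ring, 6 of 7 members were lower in BDL, with a median of -0.23. Psma1 read 5.44 and 4.71 in sham and 4.67 and 4.75 in BDL kidneys. Only sham replicate 1 was high, and the groups overlapped, with a difference of -0.36 (SE 0.31, limma adjusted p = 0.888). Psma3 read 6.35 and 5.96 in sham and 5.69 and 5.89 in BDL kidneys. Both BDL values lay below both sham values, though BDL replicate 2 was closer to sham replicate 2 than the sham animals were to each other, and the difference was -0.36 (SE 0.23, limma adjusted p = 0.875). Psma5 read 4.87 and 4.16 in sham and 4.25 and 4.18 in BDL kidneys. It resembled Psma1, with 1 high sham array and the other 3 close together, and its difference was -0.30 (SE 0.30). Psma4, outside the pattern only by its brighter probe, read 4.48 and 4.16 in sham and 4.50 and 4.28 in BDL kidneys with that probe. Here BDL replicate 1 and sham replicate 1 were level at the top, and the difference was 0.069 (SE 0.22). The differences of Psma2, Psma6 and Psma7 were -0.23, -0.15 and -0.10, each with overlapping groups.

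In the beta ring, 7 of 7 members were lower in BDL, with a median of -0.17. Psmb5, which encodes the chymotrypsin-like cutting subunit, read 7.84 and 7.39 in sham and 7.23 and 7.21 in BDL kidneys. Both BDL animals were below both sham animals, and its mean was 1.32-fold lower, a difference of -0.40 (SE 0.24, limma adjusted p = 0.872). Its 95% interval ran from -1.03 to 0.23. Psmb7, with the trypsin-like site, read 4.53 and 4.16 in sham and 3.79 and 4.09 in BDL kidneys. It was 1.32-fold lower, -0.40 (SE 0.24, limma adjusted p = 0.872), although BDL replicate 2 lay close under sham replicate 2. Psmb6, with the caspase-like site, read 6.71 and 6.41 in sham and 6.43 and 6.49 in BDL kidneys. The groups overlapped and the difference was -0.095 (SE 0.21, limma adjusted p = 0.950). Differences between the 3 cutting subunits were not tested, and the errors given are those of each gene's own difference. The structural subunits Psmb1, Psmb2, Psmb3 and Psmb4 lay between -0.18 and -0.14, each with overlap and with sham replicate 1 at the top. Without sham replicate 1, Psmb5 differed by -0.17 and Psmb7 by -0.22, the latter the lowest value of all 34 members in that fit.

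The 6 ATPases were all lower in BDL by their means, with a median of -0.22 and overlapping groups in 6 of 6. Psmc2 read 5.85 and 5.29 in sham and 4.96 and 5.50 in BDL kidneys. BDL replicate 1 was lowest and BDL replicate 2 lay above sham replicate 2, and the difference was -0.34 (SE 0.32, limma adjusted p = 0.898). Psmc4 read 4.72 and 4.10 in sham and 4.04 and 4.20 in BDL kidneys. Sham replicate 1 alone was high, and the difference was -0.29 (SE 0.28). The other ATPases ran from -0.23 (Psmc5) to -0.098 (Psmc1).

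Among the non-ATPase subunits of the base, Psmd1, a large scaffold protein, read 5.36 and 5.14 in sham and 4.81 and 5.07 in BDL kidneys. It was the 1 member of the regulatory particle whose groups did not overlap, with a difference of -0.31 (SE 0.22, limma adjusted p = 0.882). Its 95% interval ran from -0.88 to 0.27. Psmd2, the other large scaffold, differed by -0.24 (SE 0.23), and the ubiquitin receptor gene Psmd4 by -0.10 (SE 0.25). In the lid, 6 of 8 members were lower in BDL, with a median of -0.12. Psmd14, which encodes the metalloprotease that strips ubiquitin from substrates, read 2.22 and 1.60 in sham and 1.55 and 1.84 in BDL kidneys. Sham replicate 1 was the high array and the other 3 overlapped, with a difference of -0.22 (SE 0.29, limma adjusted p = 0.920). Psmd3 read 6.62 and 6.31 in sham and 6.57 and 6.51 in BDL kidneys. Here sham replicate 2 was the low array, and the difference was 0.079 (SE 0.21). Psmd11, a lid subunit that human studies name as a limiting factor of assembly, had a difference of 0.0095. The other 5 lid genes lay between -0.18 (Psmd13) and -0.080 (Psmd8).

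The assembly chaperones differed by 0.059 (SE 0.23) for Psmd5, 0.19 (SE 0.28) for Psmd9 and -0.072 (SE 0.20) for Psmd10. Psmd9 read 1.86 and 1.25 in sham and 1.67 and 1.82 in BDL kidneys. Sham replicate 2 was low and the other 3 arrays were close, and the groups overlapped. Sham replicate 1 was the highest array in 3 of 3 chaperones, though its median distance from the other arrays, 0.22, was smaller than that of the core particle, 0.49, or of the regulatory particle, 0.38. That order was not tested.

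Core and regulatory particle were compared next. The 14 core genes had a median difference of -0.18 and the 17 genes of the regulatory particle, without the 3 chaperones, one of -0.14, so that core minus regulatory was -0.032. The lower mean was in BDL for 13 of 14 core genes and 15 of 17 regulatory genes. Centred on each gene's mean, the core median was 0.37 and -0.16 for sham and -0.11 and -0.085 for BDL kidneys, and the regulatory median was 0.28 and -0.14 for sham and -0.13 and -0.025 for BDL kidneys. Core minus regulatory on single arrays was 0.084 and -0.026 for sham and 0.019 and -0.060 for BDL kidneys. The distance within each group was larger in size than the -0.032 between the medians, which rests on means of 2 arrays and so varies less. The sign of core minus regulatory was not stable: it was -0.073 without sham replicate 2, 0.014 without sham replicate 1, 0.0076 with normexp background correction and 0.0057 with the mean of all probes of a gene. No difference between the 2 particles was detectable with these arrays.

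**Figure D4:**
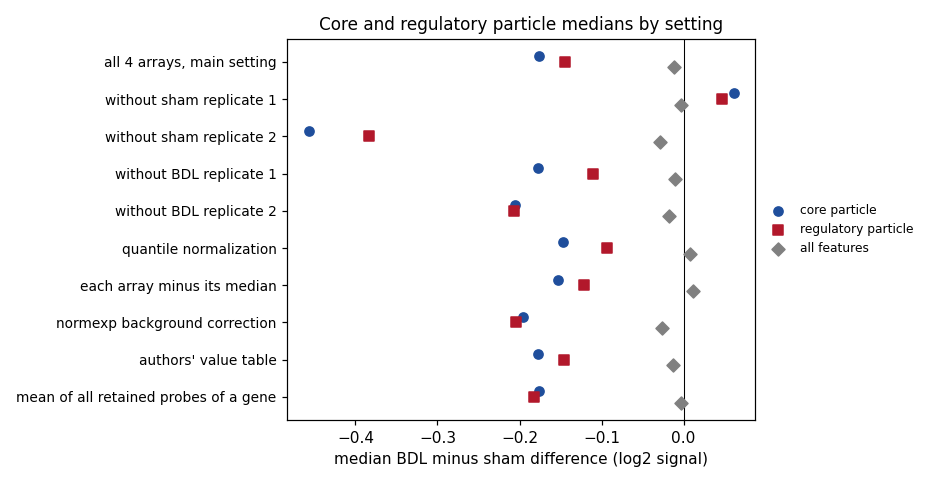
Each row is 1 way of processing or 1 array left out, and the points are the median BDL minus sham differences in log2 signal over the 14 core genes, the 17 regulatory genes and all features. Both particles sit left of 0 in every row except the one without sham replicate 1, where they are at 0.061 and 0.047.

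For 8 members a second probe was on the array, and all 42 probes were retained. Sham replicate 1 was highest for 40 of 42 probes, and 35 of 42 had a lower mean in BDL. The second probe of Psmb5 read 5.85 and 5.19 in sham and 5.01 and 4.86 in BDL kidneys. It agreed in direction with the first, without overlap, at -0.59 (SE 0.29, limma adjusted p = 0.867 over all retained probes). The probes of Psmc1 disagreed: the brighter one read 6.53 and 6.24 in sham and 6.26 and 6.32 in BDL kidneys, with a difference of -0.098. The dimmer one read 3.75 and 3.35 in sham and 2.80 and 2.82 in BDL kidneys, without overlap. Its difference was -0.74 (SE 0.23, limma adjusted p = 0.864), with an unadjusted p of 0.0263. The dimmer probe of Psmd10 likewise gave -0.56 where the brighter gave -0.072, and the 2 probes of Psmd9 (0.19 and -0.10) and of Psmd12 (-0.14 and 0.12) had opposite signs. The dimmer probes of Psmd9 and Psmd10 also had both BDL arrays below both sham arrays, which held for 19.3% of all features. The probes of Psma4, Psmc2 and Psmc3 had like differences and the same sign. For Psma4 they disagreed on the highest array, which was BDL replicate 1 for the brighter and sham replicate 1 for the dimmer probe.

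The immunoproteasome genes had the pattern of sham replicate 1 on a larger scale. Psmb8 read 5.73 and 0.99 in sham and 1.41 and 0.83 in BDL kidneys, Psmb9 read 5.37 and 0.73 in sham and 0.88 and 0.29 in BDL kidneys, and Psmb10 read 6.14 and 2.99 in sham and 3.12 and 2.75 in BDL kidneys. Sham replicate 1 stood 4.65, 4.74 and 3.19 higher than the remaining arrays on average in these genes, and 0.56, 0.26 and 0.52 higher in the constitutive counterparts Psmb5, Psmb6 and Psmb7. The same distance was 1.38 for Psme1 and 1.68 for Psme2, which encode the interferon-induced activator PA28. The 5 genes had a median BDL minus sham difference of -1.63, 0 passed (smallest limma adjusted p = 0.872, 0 at an unadjusted p under 0.05), and the median was -0.052 without sham replicate 1 and -3.21 without sham replicate 2. Psma8 and Psmb11, core subunits of testis and thymus, were not well above background on both arrays of either group.

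**Figure D5:**
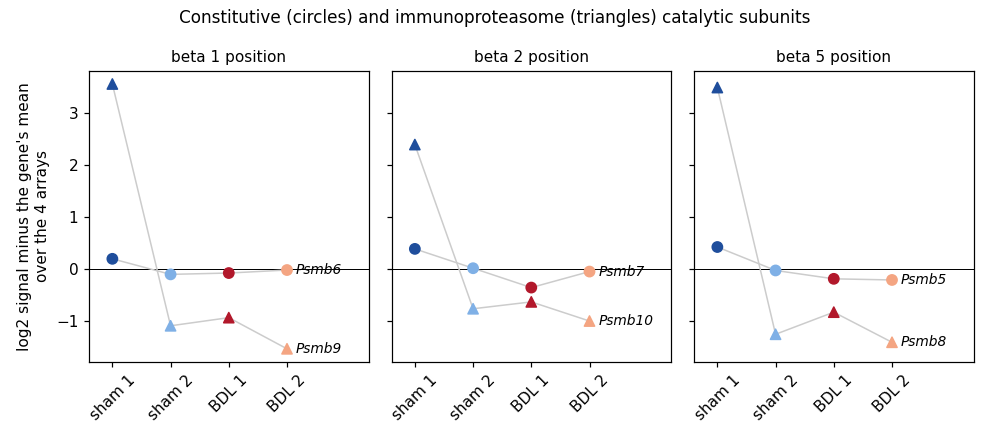
Log2 signals minus each gene's mean over the 4 arrays are shown for the constitutive cutting subunits (circles) and the immunoproteasome subunits that replace them (triangles), array by array. All 6 genes are highest in sham replicate 1, by 3.19 to 4.74 over the remaining arrays' mean for the triangles and by 0.26 to 0.56 for the circles.

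Several other immune gene lists were high on the same array, though that of neutrophils was not. Of the 14 measured interferon response genes, sham replicate 1 was highest in 12, 2.24 above the other arrays in the median, and the summed level of the list, in multiples of the 75th percentile, was 105 and 19.1 in sham and 16.4 and 13.0 in BDL kidneys. Part of the list separated by group too: both BDL arrays lay below both sham arrays in 11 of 14 genes (19.3% of all features), 5 had an unadjusted p under 0.05 and 0 passed the adjusted threshold with limma. Without sham replicate 1, 12 of 14 were lower in BDL, with a median of -0.68. The array was also highest in 6 of 7 T and NK cell genes, with summed levels of 12.005 and 7.86 in sham and 8.70 and 7.47 in BDL kidneys. In that list both BDL arrays lay below both sham arrays in 4 of 7 genes (19.3% of all features). With limma, 1 of the 7 had an unadjusted p under 0.05 (5.62%) and 0 passed the adjusted threshold. Sham replicate 1 was highest in 6 of 7 macrophage and dendritic cell genes too, with 260 and 61.0 in sham and 51.0 and 55.6 in BDL kidneys. The sum of 260 came mostly from Cd74, which read 7.72 and 4.29 in sham and 4.17 and 4.37 in BDL kidneys. Csf1r of the same list read 5.40 and 5.27 in sham and 4.86 and 4.92 in BDL kidneys. The median distance of sham replicate 1 from the other arrays over this list was 0.90. Irf1, an interferon-induced transcription factor, read 5.60 and 1.77 in sham and 1.86 and 1.71 in BDL kidneys. For proximal tubule markers sham replicate 1 was highest in 6 of 10, with a median distance of 0.15 and summed levels of 2299 and 1984 in sham and 2040 and 1923 in BDL kidneys. Both BDL arrays lay above both sham arrays in 3 of these 10 (17.4% of all features) and below in 1 (19.3%). Of the 10, 2 had an unadjusted p under 0.05 with limma (5.62%) and 0 passed the adjusted threshold. Every measured gene of these lists was well above background on all 4 arrays, Gzmb was not well above background on both arrays of either group, and Mx1, Mx2, Trbc1 and Cd68 had no named probe. Of the 5 measured neutrophil genes, sham replicate 1 was highest in 1 and BDL replicate 1 in 4. Their median BDL minus sham difference was 0.61, with both BDL arrays above both sham arrays in 2 of 5 (17.4% of all features).

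Some other cell type lists separated the groups or set 1 array apart. Both BDL arrays lay above both sham arrays (17.4% of all features) in 5 of 5 red blood cell, 5 of 5 podocyte and 3 of 8 distal tubule and collecting duct genes. They lay below both (19.3%) in 3 of 4 B and plasma cell genes and 3 of 5 hepatocyte genes. In that order 4, 3, 3, 3 and 2 genes had an unadjusted p under 0.05 with limma (5.62% of all features). Of these genes 0 passed the adjusted threshold. Among the 4 B and plasma cell genes sham replicate 1 was highest in 3, with a median distance of 0.92 from the other arrays. Endothelium genes lay above in 1 of 5 and below in 1, fibroblast genes above in 1 of 5, and thick ascending limb genes in 0 of 4 either way. The red blood cell genes had summed levels of 246 and 181 in sham and 674 and 351 in BDL kidneys. BDL replicate 1 exceeded BDL replicate 2 by a median of 6.01 over 6 urothelium genes and 6.52 over 2 adipocyte genes. Summed levels were 2.69 and 8.06 in sham and 57.8 and 1.26 in BDL kidneys for urothelium and 14.3 and 29.5 in sham and 162 and 14.1 in BDL kidneys for adipocytes. Over the 34 subunits BDL replicate 1 was not set apart in this way, with a median of -0.058 against BDL replicate 2. The part of these cells and of interferon signalling in the height of the subunits on sham replicate 1, and that of tissue make-up in the differences between the groups, was not tested.

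Further genes of the pathway were described in 7 lists, taken in the order below. With limma, 0 genes of any passed an adjusted p of 0.05 in either direction (0% of all features). An unadjusted p under 0.05 was reached by 1 gene (5.62% of all features). In list order, BDL was lower without overlap in 1, 0, 1, 2, 1, 0 and 0 genes (19.3% of all features). It was higher without overlap in 2, 1, 0, 3, 1, 1 and 0 genes (17.4%). Factors bound to the regulatory particle had 4 of 7 lower and a median of -0.10. Adrm1, a ubiquitin receptor of the base, read 4.43 and 3.94 in sham and 3.64 and 3.12 in BDL kidneys. Both BDL arrays were lower than both sham arrays, by 1.75-fold in the mean, and its difference of -0.80 (SE 0.30, limma adjusted p = 0.872) had an unadjusted p of 0.0482. The deubiquitinase genes Usp14 and Uchl5 went opposite ways, at -0.35 (SE 0.28) with overlap and 0.34 (SE 0.20) without, and Ecpas, a proteasome adaptor, differed by 0.47 (SE 0.33). The activator genes Psme3 and Psme4 differed by -0.27 and 0.25, and the inhibitor gene Psmf1 by 0.18, with 1 of 3 lower.

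Of the 6 measured assembly factors, 3 were lower, with a median of 0.015. Pomp, the maturation factor of the core particle, read 5.63 and 4.73 in sham and 4.66 and 4.72 in BDL kidneys. Its 3 lower arrays were close together and sham replicate 1 stood 0.93 above them, more than for any of the 34 subunits, with a difference of -0.49 (SE 0.35, limma adjusted p = 0.883), or -0.037 without that array. The early chaperone genes Psmg1 and Psmg3 differed by 0.045 and 0.040 and Akirin2, which imports proteasomes into the nucleus in human cells, by 0.030. Sham replicate 1 was the highest array for 4 of these 6 genes.

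Genes that control proteasome transcription had 7 of 11 lower and a median of -0.057. Nfe2l1, which encodes the NRF1 activator of proteasome genes, read -1.18 and -1.002 in sham and -0.73 and -0.98 in BDL kidneys. Both BDL arrays lay above both sham arrays, with a difference of 0.24 (SE 0.21). It is given although it is not among the 4 smallest p-values of its list. Its relative Nfe2l2 (NRF2) differed by 0.36 (SE 0.22) and their partner gene Mafg by 0.49 (SE 0.19), both without overlap. Maff, another partner, differed by 0.58 (SE 0.51) and Nfya, a subunit of the CCAAT-binding factor, by -0.43 (SE 0.33), both with overlap. Of these 11 genes, 5 were highest on sham replicate 1 (Maff, Mafk, Vcp, Nfyb and Ngly1), with Nfe2l1, Nfe2l2 and Mafg among the others.

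Ubiquitin and its activating enzymes had 4 of 6 lower and a median of -0.024. The polyubiquitin gene Ubb differed by -0.11 (SE 0.25) and the ubiquitin fusion gene Rps27a by 0.17 (SE 0.27), both with overlap. The activating enzymes went opposite ways without overlap, Uba1 at -0.16 (SE 0.19) and Uba6 at 0.43 (SE 0.19). Shuttle receptors, which carry ubiquitinated proteins to the proteasome, had 4 of 8 lower and a median of 0.022, with Ubqln1 at 0.35 (SE 0.26), Ubqln4 at 0.12, Sqstm1, an autophagy receptor, at -0.25 and Zfand2a at -0.21. Ubiquitin ligase genes had 4 of 11 lower and a median of 0.058, with the atrophy-linked Trim63 at -0.67 (SE 0.38), Nedd4l at 0.18, Stub1 at 0.15 and Cul3 at 0.15. Sham replicate 1 was highest in 2 of 6, 2 of 8 and 3 of 11 genes of these lists.

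Because the subunits shared 1 pattern over the arrays, their promoters were read for motifs of regulators known for these genes. RefSeq start sites (GRCm38.p6) were in the table used here for 28 of the 34 members, which lie on 15 chromosomes in all, and the 250 bases before each start were searched on both strands. The antioxidant response element, the site of NRF1 and NRF2 with their Maf partners, was spelled TGACNNNGC or TGAGNNNGC. It was found for 11 of 28 members (39.3%), among them 5 of 11 core genes and 4 of 14 regulatory genes, and for 25.7% of all 27025 genes of the table. CCAAT boxes were found for 11 of 28 members (39.3%), 6 of 11 core genes, 4 of 14 regulatory genes and 37.5% of all genes. The interferon-stimulated response element, spelled as GAAA, any 2 bases and GAAA again, was found for 3 of 28 members (10.7%; Psmb3, Psmd4 and Psmd9) and 3.46% of all genes, and the palindromic gamma-activated site TTCNNNGAA for 0 of 28 members and 8.13% of all genes. Of the 5 immunoproteasome and activator genes, 0 held an antioxidant response element or an interferon-stimulated response element, and 1 each held a CCAAT box and a gamma-activated site. A match of letters is a description of the sequence and was not tested for binding.

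The promoters of 5 genes are shown, 5′ to 3′ on the gene's strand and ending at the base before the start, with matches on either strand in capitals. Psmb5 and Psmb6 are cutting subunits that each hold an antioxidant response element. Psmb3 holds that element, 2 CCAAT boxes and an interferon-stimulated response element. Psma1 holds 2 CCAAT boxes, a motif about as common among the members (39.3%) as among all genes (37.5%). A relation of motifs to the height on sham replicate 1 was not tested. Psmb8 is the immunoproteasome gene that replaces Psmb5, and the 1 gene of its list of 5 with a gamma-activated site in this window. They lie at chr14:54617996-54618245 (minus strand) for Psmb5, chr11:70525107-70525356 (plus strand) for Psmb6, chr11:97703184-97703433 (plus strand) for Psmb3, chr7:114276117-114276366 (minus strand) for Psma1 and chr17:34197945-34198194 (plus strand) for Psmb8.
Psmb5: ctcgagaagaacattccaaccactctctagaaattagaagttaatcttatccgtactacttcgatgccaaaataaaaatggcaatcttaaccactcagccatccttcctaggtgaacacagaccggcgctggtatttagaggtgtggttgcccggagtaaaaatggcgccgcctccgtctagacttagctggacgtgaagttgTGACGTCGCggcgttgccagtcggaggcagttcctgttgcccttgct
Psmb6: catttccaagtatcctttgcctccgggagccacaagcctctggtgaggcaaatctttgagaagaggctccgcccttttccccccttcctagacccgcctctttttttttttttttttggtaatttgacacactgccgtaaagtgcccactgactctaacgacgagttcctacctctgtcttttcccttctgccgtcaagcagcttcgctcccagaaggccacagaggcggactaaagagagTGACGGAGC
Psmb3: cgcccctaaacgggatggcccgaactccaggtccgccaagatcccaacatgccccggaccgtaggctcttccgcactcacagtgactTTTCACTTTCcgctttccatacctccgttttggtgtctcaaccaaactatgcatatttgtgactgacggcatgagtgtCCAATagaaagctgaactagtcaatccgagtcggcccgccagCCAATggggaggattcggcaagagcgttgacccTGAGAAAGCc
Psma1: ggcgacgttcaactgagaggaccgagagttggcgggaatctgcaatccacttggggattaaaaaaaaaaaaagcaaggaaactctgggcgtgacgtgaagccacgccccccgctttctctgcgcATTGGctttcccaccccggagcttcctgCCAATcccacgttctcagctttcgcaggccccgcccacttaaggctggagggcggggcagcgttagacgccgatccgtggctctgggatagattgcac
Psmb8: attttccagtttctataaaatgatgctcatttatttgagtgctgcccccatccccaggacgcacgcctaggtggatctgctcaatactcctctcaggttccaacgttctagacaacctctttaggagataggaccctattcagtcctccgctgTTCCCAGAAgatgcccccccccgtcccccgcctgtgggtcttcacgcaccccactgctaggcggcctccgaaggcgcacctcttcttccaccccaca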

How the data were processed

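Total RNA of mouse kidney from 2 sham and 2 bile duct ligation replicates was labelled with Cy3 and hybridised to 1 array each, per the labels' protocols. Agilent Feature Extraction (11.0.1.1, named in the submitters' processing notes) read the spots. Its deposited processed signal is a linear intensity after background subtraction and spatial detrending, with no scaling from array to array, per the file headers. The value table that the authors deposited also holds intensities: the processed signal, scaled on each array by 1 constant. The flags that the authors deposited with each spot are other values used only as filters. The headers give 1 slide and 1 scan time for the 4 arrays, so that no batch of slide or scan could be fitted. Batches at earlier steps, such as RNA isolation or labelling, were not examined.

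Control and outlier-flagged spots were left out, spots of a probe were averaged as log2 values, and the 75th percentile of each array was subtracted. Accessions were matched to RefSeq symbols of GRCm38.p6, which named 27229 of 55668 probes. The array grid lists mm9, so that no coordinate was taken from the arrays. Probes well above background on both arrays of a group were retained (32283), and each gene was represented by its brightest probe, for 24044 features, 15023 with a symbol. The operation was tested in limma (version 3.58.1, R version 4.3.3) by lmFit with eBayes moderation and no other term. Two-sided p-values were adjusted over all features after Benjamini-Hochberg, with a threshold of 0.05, and the fit was checked on simulated data. Lists are described by counts and medians, with no test. The members and lists were chosen with earlier results of these data known. Named are all 34 members and up to 4 genes of each pathway list with the smallest p. 1 gene of a pathway list is not reported here and was left out of its counts. Any other gene named was picked with its values known. Alternatives were quantile and median scaling, normexp (offset 50, on the median spot and background intensities that the authors deposited), the authors' table, other probe rules and filters, array weights, a replicate block and each array left out.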

Additional observations from a re-analysis of the deposited data

How the results depend on the processing

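No processing choice that kept all 4 arrays turned the sign of any of the 34 subunits or moved 1 past the threshold. Those that could turn a sign were quantile scaling, median scaling, normexp and, for the 8 members with a second probe, the mean of all probes. Both filters kept the same probes of the members and array weights were equal within each group, so that these could change only p-values. The authors' table holds the same signal scaled by 1 constant per array, and its median over the members was -0.152 beside -0.151. Quantile scaling moved the members with both BDL arrays lower to 9 and those with both higher to 1, where the main values were 4 and 0, and lowered the count highest in sham replicate 1 to 26 from 33, an alternative of that count chosen after the data were seen. It turned Ubb to 0.023, and the mean of all probes turned Ubb to 0.0012, Uba1 to 0.067 and Nedd4l to -0.085. The groups share replicate numbers, and the sample titles do not say whether these pair the animals. Deviations of same-numbered arrays correlated at 0.063, but with 2 arrays a group this 1 value cannot decide it. With the replicate block 0 of the 34 members and 0 of 24044 features passed, as without it (smallest adjusted p over the members 0.852 with the block). Over the 4 fits that left out 1 array each, the median over all members ran from -0.40 to 0.053, that of the core particle from -0.46 to 0.061 and that of the regulatory particle from -0.38 to 0.047. Members with BDL lower and no overlap ran from 4 to 33, and with BDL higher from 0 to 19, partly because 2 against 1 arrays separate more readily. The sign turned in at least 1 of these fits for 23 members, and 11 kept it. The ranges of the former, as BDL minus sham, were Psma1 -0.73 to 0.0021, Psma4 -0.091 to 0.23, Psma5 -0.65 to 0.052, Psma6 -0.37 to 0.069, Psma7 -0.41 to 0.21, Psmb1 -0.43 to 0.13, Psmb2 -0.46 to 0.12, Psmb3 -0.35 to 0.068, Psmb4 -0.47 to 0.10, Psmb6 -0.24 to 0.054, Psmc1 -0.24 to 0.047, Psmc4 -0.60 to 0.022, Psmd4 -0.35 to 0.15, Psmd3 -0.079 to 0.24, Psmd7 -0.35 to 0.091, Psmd8 -0.33 to 0.17, Psmd11 -0.22 to 0.24, Psmd12 -0.43 to 0.14, Psmd13 -0.41 to 0.047, Psmd14 -0.53 to 0.093, Psmd5 -0.14 to 0.26, Psmd9 -0.11 to 0.50, Psmd10 -0.17 to 0.024. For other pathway genes they were Psmb8 -4.60 to 0.14, Psme3 -0.62 to 0.077, Psmf1 -0.040 to 0.40, Psmg3 -0.0017 to 0.082, Akirin2 -0.15 to 0.21, Maff -0.13 to 1.30, Ubb -0.35 to 0.13, Rps27a -0.10 to 0.44, Sqstm1 -0.67 to 0.18, Nedd4l -0.0014 to 0.36. Precision is limited by having 4 arrays.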
